A study of Mus musculus with 2 samples.

Results

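The region of Foxd2, Foxe3 and Tal1 on mouse chromosome 4 was examined for chromatin recovered with an antibody against PHF19. The region is the window chr4:113900000-115000000 of the mm8 build, and its members are all deposited PHF19 peaks that overlap it. There were 16 such peaks among the 3445 of the whole list. The members were thus selected on ChIP reads, from which the list was called, and the window was chosen by the peaks in it. The reads in these peaks and their enrichment are therefore a description and were not tested. The cells were E14 mouse embryonic stem cells, an established line grown on gelatin in medium with LIF, a cytokine that holds the cells pluripotent. DNA recovered with a custom rabbit polyclonal antibody against PHF19 gave the ChIP library, and DNA of the same line sequenced with no antibody gave the input library. No genetic change or treatment was named for either, and there was no library from differentiating cells. With 1 library per group, no replicate error can be given. Intervals are at 95% and cover counting error alone, so they leave out variation between libraries and could be too narrow. No library checks the specificity of the antibody, so enrichment shows what it recovered. The libraries held 23965625 (ChIP) and 26433784 (input) aligned reads, of which 21957101 and 24496988 were distinct, that is, counted once per position and strand. In the window, 11251 distinct ChIP and 11231 distinct input reads were placed, with medians of 9 and 10 per kb.

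PHF19 is a Polycomb-like protein that associates with PRC2, the complex that places the repressive mark H3K27me3 on histone H3. Its Tudor domain binds H3K36me3, a mark of transcribed gene bodies. In embryonic stem cells, PRC2 is known for covering the CpG-rich starts of silent genes that control development, often as broad domains. Foxd2 and Foxe3 encode forkhead transcription factors, and Foxe3 acts in the epithelium of the lens. Tal1 encodes a basic helix-loop-helix factor needed for the formation of blood cells. In the GRCm38.p6 gene table, which gives names and order only, the genes from Foxd2 to Tal1 run in the order Foxd2, Foxd2os, Foxe3, Gm40229, Cmpk1, Stil, Gm52674 and Tal1. Cmpk1 encodes a kinase of pyrimidine nucleotides, Stil a protein of centriole duplication, and Foxd2os and both Gm genes are listed as long noncoding RNAs. On the outer sides the table lists Gm12830 and Gm23230 next to Foxd2, and Gm33786 and Pdzk1ip1 next to Tal1. Since no mm8 gene models were used, the distance of a peak from a gene was not measured, and peaks are named by their position.

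The promoters of the genes that give the region its name are shown because PRC2 is known for CpG-rich gene starts. They are the 250 bases before each start in RefSeq (GRCm38.p6), on the strand of the gene, minus for Foxd2 and Foxe3 and plus for Tal1, with each CG pair in capitals. Tal1 has 2 starts in the table.
Foxd2: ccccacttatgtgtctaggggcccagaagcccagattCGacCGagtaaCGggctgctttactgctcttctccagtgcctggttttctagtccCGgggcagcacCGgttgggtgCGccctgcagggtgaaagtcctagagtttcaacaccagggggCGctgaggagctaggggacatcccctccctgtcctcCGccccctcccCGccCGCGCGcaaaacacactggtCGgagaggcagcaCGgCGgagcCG
Foxe3: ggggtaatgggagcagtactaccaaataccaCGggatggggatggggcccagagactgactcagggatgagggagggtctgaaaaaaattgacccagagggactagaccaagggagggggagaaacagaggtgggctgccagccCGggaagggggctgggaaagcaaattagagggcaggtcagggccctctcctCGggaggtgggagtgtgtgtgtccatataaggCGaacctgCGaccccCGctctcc
Tal1, start 1: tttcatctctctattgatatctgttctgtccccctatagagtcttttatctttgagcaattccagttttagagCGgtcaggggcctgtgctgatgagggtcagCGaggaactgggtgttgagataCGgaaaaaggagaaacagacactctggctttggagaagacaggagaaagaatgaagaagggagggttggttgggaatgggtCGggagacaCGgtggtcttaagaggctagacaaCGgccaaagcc
Tal1, start 2: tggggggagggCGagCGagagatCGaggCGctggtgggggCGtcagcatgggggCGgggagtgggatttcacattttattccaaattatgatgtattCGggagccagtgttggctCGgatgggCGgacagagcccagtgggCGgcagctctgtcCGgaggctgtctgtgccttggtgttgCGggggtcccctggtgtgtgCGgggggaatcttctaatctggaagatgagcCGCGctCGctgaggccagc

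The Foxd2 promoter held 16 CG pairs and 64.4% C and G, and the second Tal1 promoter held 16 pairs and 62.8%. As many CG pairs or more were found in 25.4% of the 32851 promoters of this length in the table. The Foxe3 promoter and the first Tal1 promoter held 6 CG pairs each, the median of all promoters, with 60.0% and 48.8% C and G. CG reads the same on both strands, and at least 1 CG pair was present in 92.1% of all promoters. Between Foxe3 and Tal1, the promoters of Cmpk1 and Stil held 17 and 18 CG pairs. Beyond Tal1, Gm33786 held 11 and Pdzk1ip1 held 3, and on the outer side of Foxd2, Gm12830 held 16. Of the 12 genes from Gm12830 to Pdzk1ip1, 8 had a promoter in the table. These counts describe the reference sequence and say nothing of whether PHF19 was there.

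Across the window, PHF19 reads were gathered at 2 groups of peaks, each spread over about 12 to 13 kb, and at 5 peaks that stood alone. A group joins peaks with gaps of at most 10 kb. The first group, chr4:114398918-114411764, held 6 peaks over 12.8 kb. A lone peak followed 10.7 kb after it, just beyond the limit for joining. The second group, chr4:114550122-114562311, held 5 peaks over 12.2 kb and began 125 kb after that lone peak. The other 4 lone peaks lay before the first group, at distances of 57.0 kb to 176 kb from the next peak. No peak lay in the last 438 kb of the window.

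**Figure D1:**
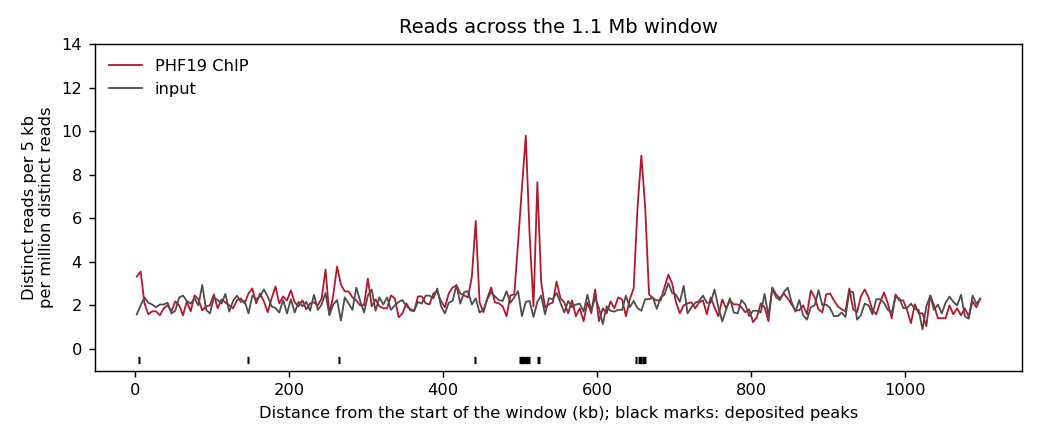
Distinct reads per 5 kb and per 1000000 distinct reads of each library (y axis) along the window (x axis, kb from its start), with the PHF19 ChIP in red, the input in grey and the 16 peaks as black marks. The ChIP rises to 9.79 over the first group, 7.65 over the lone peak after it and 8.88 over the second group, while the input stays at 2.16, 2.16 and 1.76 there.

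The 16 peaks covered 23.8 kb, or 2.17% of the window. They held 1046 ChIP reads, 9.30% of the ChIP reads of the window (8.77 to 9.85, exact binomial interval). Of the input reads, they held 231, or 2.06% (1.80 to 2.34), close to their share of the length. Fold means the share of all distinct ChIP reads that lie in a region, divided by the share of all distinct input reads there. The joint fold of the peaks was 5.05 (4.38 to 5.85), beside 3.56 (3.53 to 3.58) for the other 3429 peaks of the list. Fold ranged from 2.87 to 7.02 over the 16 peaks with a median of 5.12, and the rest of the list had a median of 3.68 with quartiles of 2.93 and 4.69. The density of ChIP reads went the other way, with a median of 1.61 reads per kb and 1000000 distinct reads in the 16 peaks and 1.79 in the rest. The input over the members was lower as well, at a median of 1.05 times the chromosome median beside 1.33 in the rest. In all, 11 of the 16 peaks lay above the median fold of the list. All 16 peaks were called enriched (exact two-sided conditional binomial test, Benjamini-Hochberg adjustment over the list, fold of at least 2), where 98.5% of all peaks were called and nothing is read from this count. At a fold of at least 4, 10 of the 16 were called, beside 40.6% of the list.

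**Figure D2:**
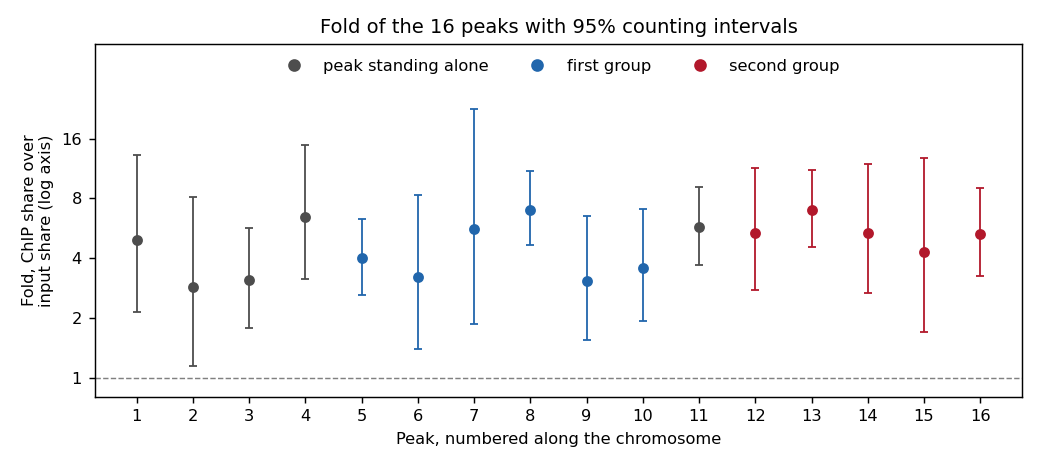
Fold of each peak (y axis, log scale) in order along the chromosome (x axis), with 95% counting intervals as bars, peaks standing alone in grey, the first group in blue and the second group in red. Peaks 8 and 13 are highest at 7.02 and 7.01, and all 16 intervals lie above 1.

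Numbered along the chromosome, the first group is made of peaks 5 to 10. Its peaks together held 391 ChIP and 93 input reads, giving a joint fold of 4.69 (3.73 to 5.95). The strongest of them was peak 8, chr4:114404722-114407801, which was both the widest peak of the window, at 3080 bp, and the one with the highest authors' score, ranked 97 of 3445. Peak 8 held 170 ChIP reads and 27 input reads, giving a fold of 7.02 (4.66 to 10.97). The input over it was ordinary, at 0.974 times the median of chromosome 4. Its densest stretch of 250 bases, chr4:114405122-114405371, held 29 ChIP and 3 input reads.

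The other 5 peaks of the first group had lower folds and fewer reads, with 20 to 100 ChIP reads, 4 to 28 input reads and folds of 3.07 to 5.58. Their widths ran from 683 to 2309 bp. Peak 5, at the left end of the group (chosen after its values were seen), held 100 ChIP and 28 input reads, giving a fold of 3.98 (2.60 to 6.30). Between the peaks of the first group, 3.72 kb held 78 ChIP and 29 input reads, giving a fold of 3.00 (1.94 to 4.77). The gap of 1372 bp between peaks 5 and 6 held 36 ChIP and 8 input reads, giving a fold of 5.02 (2.29 to 12.5). That value is no lower than the fold of peak 6 itself, 3.21 (1.39 to 8.29), so the ChIP did not drop to the input at the deposited limits there. The other 4 gaps of the group had folds of 1.56 to 2.57, and 3 of their intervals included 1. Over the whole span of the group, gaps included, the fold was 4.29 (3.51 to 5.28).

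The lone peak after the first group, peak 11 at chr4:114422499-114425291, was the largest of those standing alone. It was 2793 bp wide, where the others had 569 to 1466 bp, and held 128 ChIP and 25 input reads, giving a fold of 5.71 (3.70 to 9.16). Its authors' score ranked 290 of 3445. In its densest 250 bases, 26 ChIP reads stood against 2 input reads. When gaps of up to 20 kb were joined, it became the seventh peak of the first group.

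In the second group, peaks 12 to 16 held 376 ChIP and 72 input reads, a joint fold of 5.83 (4.52 to 7.61). The intervals of both groups overlap, and the difference between their folds was not tested, so no order is read from them. Peak 13, chr4:114554060-114556757, was the widest of the group at 2698 bp, with 157 ChIP and 25 input reads, and its fold was 7.01 (4.57 to 11.2). Its authors' score ranked 122 of 3445. Its densest 250 bases, chr4:114555060-114555309, held 25 ChIP reads and no input read. The remaining 4 peaks had 23 to 95 ChIP reads, 6 to 20 input reads and folds of 4.28 to 5.38. Their widths were 661 to 2073 bp. Only 38 bp separated peaks 13 and 14, and 79 bp peaks 15 and 16, so that the 5 peaks formed 3 blocks.

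Between the blocks of the second group the ChIP was closer to the input than in its peaks. The 4.13 kb between peaks held 60 ChIP and 38 input reads, giving a fold of 1.76 (1.15 to 2.72). This interval overlaps that of the first group, 1.94 to 4.77, and the difference was not tested. In the 2647 bp between peaks 12 and 13 there were 40 ChIP and 21 input reads, giving a fold of 2.13 (1.22 to 3.79). In the 1361 bp between peaks 14 and 15 there were 20 and 17 reads, a fold of 1.31 (0.653 to 2.67).

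**Figure D3:**
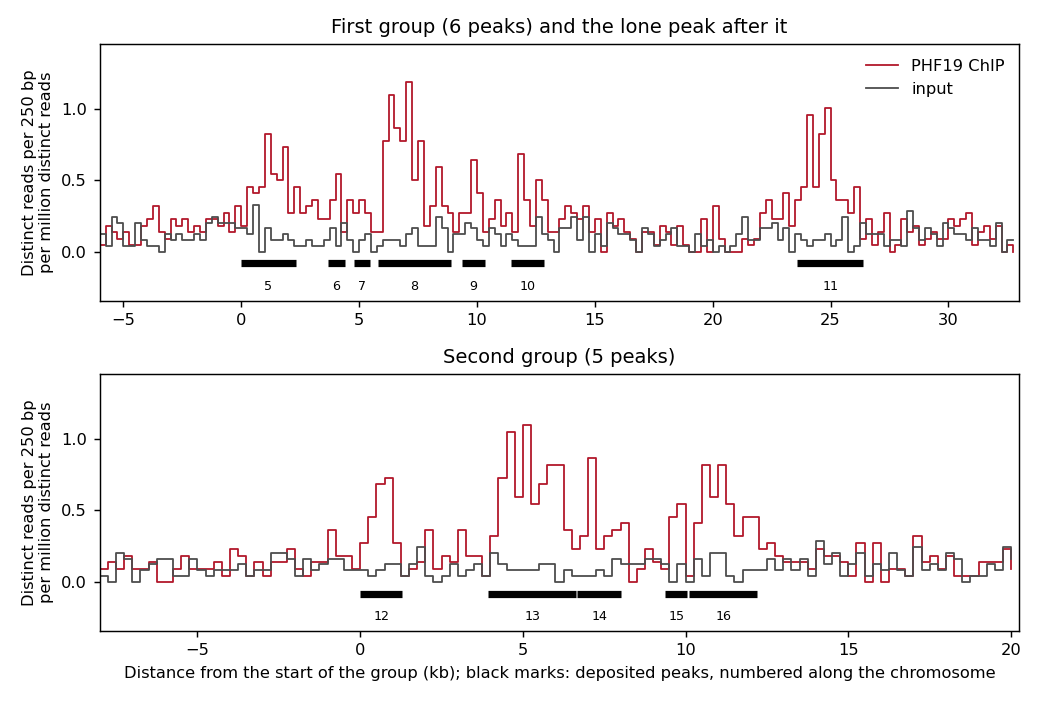
Distinct reads per 250 bp and per 1000000 distinct reads (y axis) along the first group with the lone peak after it (top) and along the second group (bottom), in kb from the start of each group (x axis), with the PHF19 ChIP in red, the input in grey and numbered peaks as black marks. ChIP reads stay above the input across most of the gap between peaks 5 and 6, which had a fold of 5.02, and come close to it between peaks 14 and 15, where the fold was 1.31.

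The 4 lone peaks before the first group were 569 to 1466 bp wide, and their folds had intervals that overlap. Peak 4 at chr4:114340984-114341882, was 899 bp wide and held 52 ChIP and 9 input reads, giving a fold of 6.45 (3.15 to 14.9). Peak 1, chr4:113904472-113905398, held 31 ChIP and 7 input reads, giving a fold of 4.94 (2.13 to 13.3). Peak 3, chr4:114163992-114165457, held 50 and 18 reads, a fold of 3.10 (1.78 to 5.64). The lowest fold of the window was that of peak 2, chr4:114046917-114047485, with 18 ChIP and 7 input reads over 569 bp, giving a fold of 2.87 (1.14 to 8.13). Peak 2 had 11 ChIP and 1 input reads on the plus strand and 7 and 6 on the minus strand, counts too small to compare. The 5 lone peaks, peak 11 included, had a joint fold of 4.72 (3.59 to 6.27), and the 11 peaks in groups had 5.19 (4.38 to 6.17), with intervals that overlap.

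Reads above the scaled input were counted inside and outside the peaks of the window. Over the 16 peaks, the ChIP exceeded the input, scaled to the same number of distinct reads, by 839 reads. Outside the peaks the excess was 345 reads, made up of 374 within 5 kb of a peak and -28.8 beyond. Beyond 5 kb no deficit is read from this, since the intervals of the fold at 5 to 10, 10 to 50 and over 50 kb all include 1. Of the excess inside peaks, the first group held 36.7%, the second group 37.1%, and the lone peak 11 12.6%. The other 4 lone peaks shared the remainder, with 1.40% to 5.24% each. Peaks 8, 13 and 11 together held 46.0% of the excess inside peaks.

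The members were not uniformly strong by the authors' own score, which was used only to rank peaks and split the list at its median. Their median score was 145.1, beside 113.55 in the rest of the list. Of the 16 peaks, 9 were at or above the median score of the list, 113.6. Scores ran from 50.63 for peak 7 to 782.19 for peak 8, where the list begins at 50.01, so peak 7 lay just inside its lower end. The peaks were not wide for this list, with a median width of 1317 bp beside 1428 bp for the rest.

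**Figure D4:**
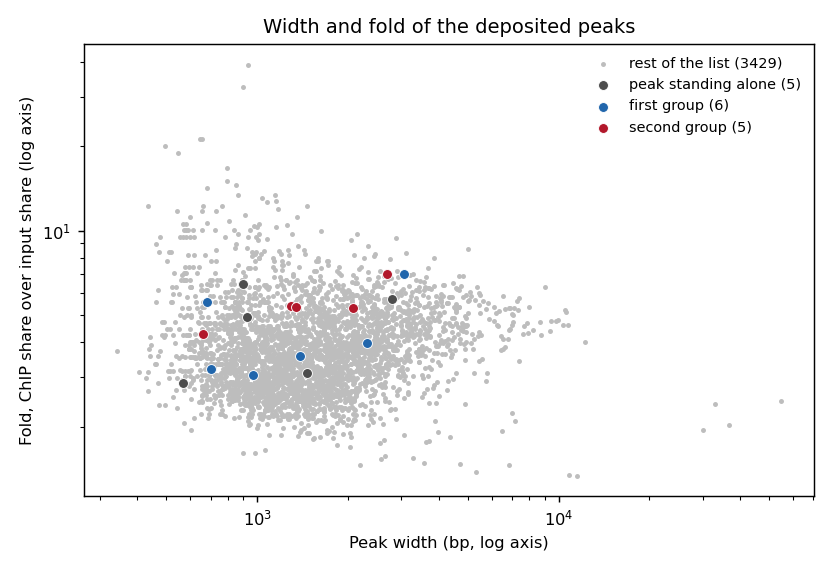
Width (x axis, log scale, bp) and fold (y axis, log scale) of every deposited peak, with the 3429 peaks outside the window in light grey, peaks standing alone in dark grey, the first group in blue and the second group in red. The members spread from 569 to 3080 bp in width and from 2.87 to 7.02 in fold, inside the cloud of the other peaks.

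Groups of this size were uncommon in the list. Of 2502 groups and lone peaks over all chromosomes, 55 held at least 5 peaks, and both groups of the window were among them. By joint fold the second group ranked 3 and the first group 26 of the 55, and by density of ChIP reads in peaks they ranked 16 and 39. The other 53 had folds of 2.11 to 6.72 with a median of 4.58. The intervals of the second group, 4.52 to 7.61, and of the first, 3.73 to 5.95, both include that median. Both groups of the window were short, ranking 46 and 49 of 55 in span at 12.8 and 12.2 kb, where the others had a median of 20.9 kb. Peaks filled 71.1% of the span of the first group and 66.2% of the second, beside a median of 59.3% in the others. These ranks follow from reads that also defined the peaks, and are given as a description.

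A search in bins of 1 kb, which does not use the limits of the peaks, called bins that touched 12 of the 16 peaks. No other bin of the window was called. Of 1099 bins tested in the window, 18 (1.64%) were called higher in the ChIP (exact one-sided conditional binomial test, Benjamini-Hochberg adjustment over all bins of the genome, fold of at least 2), while 0.157% of all bins were called. The search used the same reads as the peaks, so nothing is read from this. The bin with the most ChIP reads was chr4:114405001-114406000, inside peak 8, where 79 ChIP reads stood against 8 input reads at a fold of 11.02 (5.33 to 26.4). Next came chr4:114555001-114556000 in peak 13 with 70 and 8 reads, or 9.76 times the input share (4.69 to 23.5). The bin chr4:114423001-114424000 in peak 11 held 70 and 9 reads, a fold of 8.68 (4.32 to 19.8). All 18 bins touched a peak, while peaks 1, 2, 3 and 9 were touched by none. Some bins reached beyond 1 peak. The bin chr4:114401001-114402000 ran from peak 5 into the gap after it, and chr4:114560001-114561000 touched both peak 15 and peak 16. By the same test no bin outside the peaks was called, although 47 of 1061 (4.43%) had an unadjusted p under 0.05, beside 3.83% of all bins of the genome.

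Outside the peaks the enrichment ended within a few kb. In the window, the fold was 1.89 (1.59 to 2.25; 357 ChIP and 211 input reads) up to 1 kb from a peak and 1.53 (1.24 to 1.89) from 1 to 2 kb. From 2 to 5 kb it was 1.37 (1.20 to 1.57; 492 and 400 reads), and from 5 to 10 kb it was 1.04 (0.925 to 1.17). Around all peaks of the list, the fold was 1.63, 1.29, 1.12 and 1.06 at these distances. The interval from 2 to 5 kb in the window lies above the value for all peaks, while those up to 1 kb, from 1 to 2 kb and from 5 to 10 kb include it. That difference was not tested. More than 50 kb from a peak the fold in the window was 0.979 (0.942 to 1.02).

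**Figure D5:**
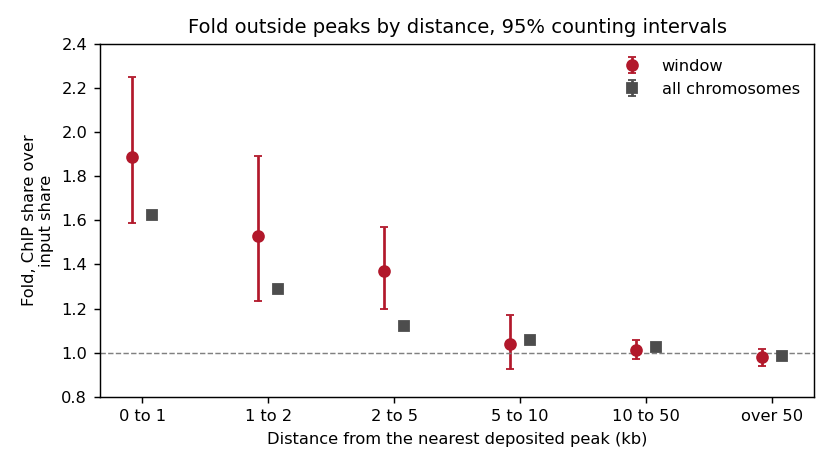
Fold outside the peaks (y axis) by distance from the nearest deposited peak (x axis, kb), in the window as red circles and over all chromosomes as grey squares, with 95% counting intervals as bars. In the window the fold falls from 1.89 within 1 kb to 1.04 at 5 to 10 kb.

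Next to each group or lone peak, the fold was measured over 2 kb on either side. Around peak 4, 73 ChIP and 46 input reads gave a fold of 1.77 (1.21 to 2.62). Around peak 11 it was 1.76 (1.19 to 2.65), and around peak 3 it was 1.87 (1.18 to 3.02). The first group had 1.46 (1.04 to 2.08) and the second 1.496 (0.995 to 2.26) at their outer edges. Peak 1 had 1.62 (1.09 to 2.44), and peak 2 had 1.31 (0.773 to 2.23). All 7 intervals overlap, and differences between these folds were not tested, so no order is read from them.

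Between and beyond the peaks, the shares of ChIP and input reads were nearly balanced. Between peak 11 and the second group, 125 kb held 1130 ChIP and 1226 input reads, giving a fold of 1.03 (0.948 to 1.12). Between peak 4 and the first group, the fold was 1.07 (0.952 to 1.19) over 57.0 kb. After the second group no peak followed for 833 kb, where the fold was 0.999 (0.968 to 1.03). Before peak 1, which lies 4.47 kb inside the window, the list had no peak for 4.42 Mb. That stretch ranked 6 of 236 gaps between peaks on chromosome 4, whose median was 200.4 kb. Its fold was 0.966 (0.9496 to 0.983; 23410 ChIP and 27026 input reads), and none of its 3444 tested bins was called. Coverage was thinner there, at 6.11 input reads per kb against 10.5 after the second group, so a weak site would be harder to see. Bins with fewer than 5 reads in both libraries together were not tested, so the 3444 bins leave out part of the 4.42 Mb. The peak beyond it, chr4:109481241-109483654, had a fold of 5.21 (3.41 to 8.21), and the next one after the window, chr4:115395701-115396865, had 2.19 (1.34 to 3.66).

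Balance between strands was not part of the rule for the window. The folds on each strand use the reads that chose the peaks and are a description. The joint fold was 5.11 (4.16 to 6.32) on the plus strand and 5.01 (4.10 to 6.17) on the minus strand. The lowest fold of a member on a single strand was 1.33, on the minus strand of peak 2, from 7 ChIP and 6 input reads. Plus-strand reads made up 50.3% of ChIP reads in the 16 peaks (47.2 to 53.4, exact binomial interval) and 48.9% of input reads (42.3 to 55.6), beside 50.6% and 50.7% over all peaks. None of the 16 peaks departed from the plus share over all peaks (exact two-sided binomial test, Benjamini-Hochberg adjustment over the list), and 0 had an unadjusted p under 0.05. Over the list, 0.958% of peaks departed from it after adjustment. The unadjusted count has no list share beside it, so nothing is read from it. With 18 to 170 ChIP reads per peak in the window, only large departures could pass this test.

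Whether the authors' caller used the input is not known here, so the input level may not be independent of the choice of peaks. Input over the members ranged from 0.651 to 1.38 times the chromosome median with a median of 1.05, while the rest of the list had a median of 1.33 and quartiles of 1.07 and 1.61. None of the 16 peaks departed from the chromosome median by an exact two-sided Poisson test with Benjamini-Hochberg adjustment over the list, and 0 had an unadjusted p under 0.05. After adjustment, 17.3% of the peaks of the list departed from it, with 17.2% higher and 0.029% lower, and 6.73% were raised at least 2 times, as none of the 16 was. Here too the unadjusted count has no list share beside it, so nothing is read from it. With 4 to 28 input reads per peak, only large departures could pass this test, so a raised input below that size was not detectable. In narrow peaks the small input counts also widen every fold: peak 7 rests on 20 ChIP and 4 input reads, and its fold of 5.58 has an interval of 1.87 to 22.4.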

How the data were processed

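The authors deposited, for each library, the mm8 position and strand of every aligned read; per the submitters' processing notes Bowtie was the aligner. They also deposited a peak list, from MACS per the file headers, in which each peak has a score. The caller's settings, its use of the input and the placing of reads with several matches were not given in the sources used here. Reads were counted here once per position and strand, which left out 8.38% of the ChIP and 7.33% of the input. Their 5′ ends were moved inwards by 54 bp, 0.5 times the lag between strands of the input (108 bp), because the lag of the ChIP, 41 bp, was close to the read length of 42 bp. The lag was computed over the autosomes.

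Folds have exact conditional binomial intervals. Peaks were tested over the whole list and 1 kb bins with at least 5 reads over all chromosomes. A call needed a fold of 2 and, after Benjamini-Hochberg adjustment, a p of 0.05. For the fold of a single peak or bin, an input count of 0 was set to 3. That fold was used for calls and for the median and quartiles of fold over the list. The p used the counts as they were. Tests compare the reads of 2 libraries, not conditions. They were tried on simulated counts with counting error alone, which cannot show the effect of variation between libraries. The members and lists were chosen with earlier results of these data known. Named regions are, in each group, the peak with the highest score, the largest fold with at least 20 ChIP reads and the widest, all lone peaks, and the 3 called bins with the most ChIP reads inside and outside peaks. Promoter letters were also counted in 3 gene lists. For 18 forkhead genes 10 had a promoter in the table, so that count is void. Of 10 genes of TAL1 and its partners 9 had one, with a median of 17 CG pairs over 15 promoters, and of 6 genes of general upkeep 5 had one, with a median of 17. The median of all promoters was 6. Alternatives covered duplicates, shift, scaling, thresholds, peak limits, bin size, read minimum and gap. The work was done in Python 3.11.15 with scipy 1.17.1, numpy 2.4.6, matplotlib 3.10.9 and pandas 2.3.3.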

Additional observations from a re-analysis of the deposited data

How the results depend on the processing

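Folds of the 16 peaks and of both groups stayed inside their counting intervals in all 64 and 8 values computed with duplicates kept, without the shift, and scaled by reads outside peaks or by reads of chromosome 4. The joint fold of 5.05 was 5.005 to 5.14 under these, 5.50 for the members at or above the median score and 3.99 with peaks widened by 500 bp, which takes in flanks of lower fold. The count of 16 called peaks was 10 at a fold of at least 4 and 9 among peaks at or above the median score, which holds only 9 members. Called bins, 18 over 18 kb, numbered 17 or 18 under 6 alternatives with 1 kb bins, 15 in bins of 500 bp, which covered 7.5 kb, and 10 in bins of 5 kb, which covered 50 kb. The fold at least 1 kb from a peak, 1.02 (0.991 to 1.05), was 0.997 to 1.04 in all 6 alternatives, a range that crosses 1. No peak passed the strand test in its 3 alternatives, or the test of raised input in its 4. Groups and lone peaks numbered 7 at a gap of 5 kb and 6 at 20 kb. Peak 2, with 18 ChIP and 7 input reads, had a fold of 2.87, and 4.24 without the shift. Few reads per peak limit what single folds can show. No paired analysis was possible because each group holds 1 library.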
